A study of Homo sapiens with 2 samples.

Results

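ATP-binding cassette (ABC) transporters are membrane proteins that use ATP to move drugs, conjugated metabolites, lipids, porphyrins or peptides out of the cell or into an organelle. They were examined here in HT-29, a human colorectal adenocarcinoma line, grown in 2 ways. All probe sets assigned to exactly 1 gene were kept where that gene's symbol is ABCA, ABCB, ABCC, ABCD, ABCE, ABCF or ABCG followed by a number, and pseudogenes were left out. This gave 92 probe sets of 41 genes, out of 19775 genes with a probe set of their own.

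The monolayer group is 1 array of HT-29 cells grown attached in DMEM/F-12 with 10% fetal bovine serum. The spheroid group is 1 array of HT-29 cells from such cultures, kept for 5 days on low-adhesion plates in serum-replaced stem cell medium with B27, epidermal growth factor and fibroblast growth factor. Growth form and medium changed together and cannot be told apart. The study set spheroids, taken as a culture rich in colorectal cancer stem cells, against monolayer to find pathways that differ. Each condition had 1 array here, so differences have no replicate check and carry no p-value. In bulk RNA such as this, fewer cells of a type and less RNA per cell cannot be told apart.

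The value for each probe set is a MAS5 signal, an intensity on a linear scale that depends on the probe set, so that signals are compared between the arrays and not between genes. The brightest probe set stood for its gene. Signals under 62.7, the 50th percentile over both arrays, were raised to that floor, and a gene was called measured when it was above the floor on 1 or both arrays. Differences are given as log2 of the spheroid signal over the monolayer signal after the floor. Where a pair of signals is given, monolayer comes first. On this scale 13183 genes were measured, with a median difference of -0.05. The 18 hybridisation spike-in probe sets, RNAs added in equal amount, were lower on the spheroid array by a mean of 0.25 on the log2 scale (mean log2 difference -0.25). The 27 labelling spike-in probe sets had a mean log2 difference of -0.36, and no scaling to them was tried. Of 10 markers of colonic epithelium 4 were above the floor on both arrays, EPCAM at 21151 and 22299, KRT8 at 8497 and 6762, KRT18 at 29713 and 22627, and KRT20 at 99.6 and 218. VIL1 (100.5 and 27.2), CDX2 (55.9 and 79.98) and CEACAM5 (12.3 and 105.5) passed the floor on 1 array, and CDX1, CDH17 and LGALS4 on neither. The general epithelial genes were thus bright, whereas the markers more particular to the intestine were dim or under the floor in arrays labelled as a colon line. The summed signal of the 10 genes was 59711 in monolayer and 52188 in spheroids, nearly all of it from EPCAM, KRT8 and KRT18, so the sum does not show the 2.19-fold higher signal of KRT20 in spheroids. Of 7 markers of other cell types, 5 (PTPRC, COL3A1, VWF, ALB and GFAP) were under the floor on both arrays, whereas COL1A1 had signals of 1370 and 1972 and PECAM1 of 124 and 99.5. Their summed signal, most of it from COL1A1, was 1591 in monolayer and 2150 in spheroids, and the part of these markers in the differences below was not tested.

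ABC proteins share a nucleotide-binding domain that hydrolyses ATP, joined in the transporters to a membrane-spanning part that forms the path for the substrate. In the gut, drug efflux pumps of the apical membrane return foreign compounds and conjugates to the lumen, whereas several ABCA and ABCG proteins export cholesterol and phospholipid. Efflux pumps are also studied in cancer stem cells, since ABCG2 expels the dye by which side population cells are recognised. ABCE1 and the ABCF proteins keep the nucleotide-binding domains but lack a membrane part and act on ribosomes.

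Of the 41 genes 26 were measured, 24 of them on both arrays and 2 on 1 array. ABCC2 and ABCB6 were at least 2-fold higher on the spheroid array and ABCB1 and ABCG1 at least 2-fold lower. Among all measured genes 5.61% were past 2-fold in either direction, 2.53% higher and 3.08% lower. The 4 genes are 15.4% of the 26, and nothing particular to the family is read from so few. Past 3-fold were 2 of the 26, ABCC2 and ABCB6, where 0.85% of all measured genes were. The median log2 difference of the 26 was -0.13, with quartiles at -0.28 and 0.17, beside -0.05 over all measured genes. After the floor 21 of the 26 genes differed by less than 1.5-fold, or 80.8%, where 78.8% of all measured genes did so. Both shares count bounds, 2 among the 26 (ABCB9 and ABCC9) and 1628 among the 13183, whose differences may be larger. On the scale as deposited 9 of the 26 were above 0, against 45.2% of all measured genes. Scaled to the spike-ins, which moves the median of all measured genes to 0.18, 18 of the 26 were above 0 and the family's median was 0.12. Thus 9 genes changed sign with the scaling, all of them within 1.5-fold: ABCA1, ABCB10, ABCC4, ABCC5, ABCC10, ABCF1, ABCF2, ABCG2 and ABCG4.

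**Figure D1:**
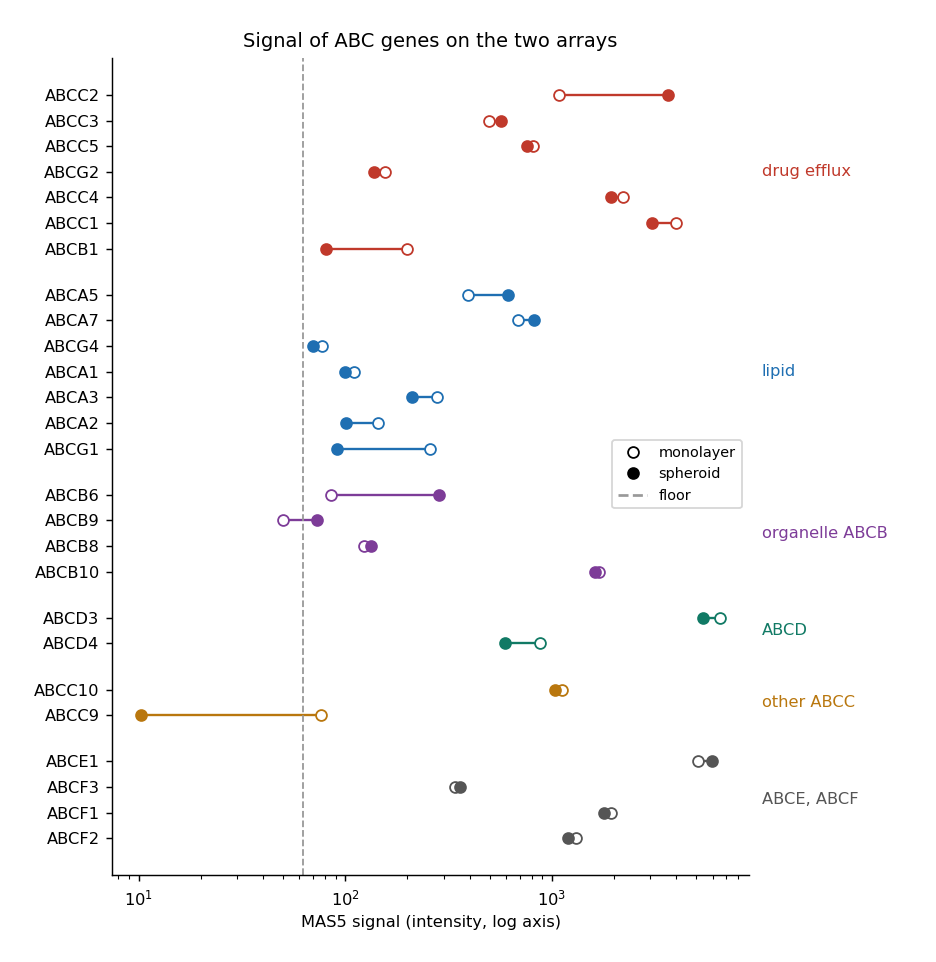
MAS5 signal (log axis) of the 26 measured ABC genes on the HT-29 monolayer array (open circles) and the spheroid array (filled circles), 1 array per condition, grouped by role. The dashed line is the floor of 62.7. The longest lines above the floor belong to ABCC2, ABCG1, ABCB6 and ABCB1, and ABCB1 and ABCG1 end near the floor in spheroids. Signals are not comparable between genes.

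The sequence upstream of 3 of the genes past 2-fold is shown to give their genomic context, and no measurement here bears on it. ABCG1 has no entry in the promoter table. The runs are the 250 bases before an annotated start, 5′ to 3′, from RefSeq (GRCh38.p14): ABCC2 at chr10:99782390-99782639 on the plus strand, ABCB6 at chr2:219218959-219219208 on the minus strand and ABCB1 at chr7:87600885-87601134 on the minus strand. ABCB1 has a second annotated start, whose window holds none of the motifs searched. Capitals mark matches, on either strand, to the GC box (GGGCGG), the CCAAT box (CCAAT), the TATA box (TATAAA), the E-box (CACGTG) and the antioxidant response core (TGACNNNGC).
ABCC2: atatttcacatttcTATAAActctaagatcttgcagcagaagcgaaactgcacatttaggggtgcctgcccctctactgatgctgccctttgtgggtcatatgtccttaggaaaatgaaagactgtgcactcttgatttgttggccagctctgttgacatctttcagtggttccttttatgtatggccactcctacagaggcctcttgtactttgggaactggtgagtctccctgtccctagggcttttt
ABCB6: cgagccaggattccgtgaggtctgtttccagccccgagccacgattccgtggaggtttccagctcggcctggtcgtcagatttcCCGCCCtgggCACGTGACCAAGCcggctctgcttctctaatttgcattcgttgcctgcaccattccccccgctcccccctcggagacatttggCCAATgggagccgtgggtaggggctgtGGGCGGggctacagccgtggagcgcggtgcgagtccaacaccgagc
ABCB1: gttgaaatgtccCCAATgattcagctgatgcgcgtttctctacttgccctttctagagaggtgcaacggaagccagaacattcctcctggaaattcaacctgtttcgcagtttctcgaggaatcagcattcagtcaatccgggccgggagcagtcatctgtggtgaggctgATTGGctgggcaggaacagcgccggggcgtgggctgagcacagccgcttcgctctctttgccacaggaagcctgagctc
The ABCC2 window holds a single match, to the TATA box letters, 236 bases before the start. The ABCB6 window has 2 GC boxes, a CCAAT box, and an E-box that overlaps an antioxidant response core. The ABCB1 window has 2 CCAAT boxes. Of all 35116 windows of this length 42.6% hold a GC box, 32.0% a CCAAT box, 10.7% the TATA box letters, 6.34% an E-box and 10.9% an antioxidant response core. In the 33 windows of the 23 measured ABC genes that have one, these shares were 69.7%, 18.2%, 12.1%, 21.2% and 27.3%, several genes having more than 1 window and those of ABCG2 overlapping. The 35116 windows belong to genes measured here or not, so the sets are unlike and no enrichment is read from the shares. GC content was 45.6% for ABCC2, 64.4% for ABCB6 and 55.6% for ABCB1, beside a median of 58% over all windows. A match is a stretch of letters and no measured site.

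All 7 drug efflux transporters were measured, and they did not move one way. ABCC2 was the gene of this group past 2-fold higher and ABCB1 the gene past 2-fold lower, while the other 5 differed by less than 1.5-fold. The median log2 difference of the 7 was -0.17, and 0.07 when scaled to the spike-ins. ABCC2, or MRP2, exports glutathione and glucuronide conjugates and bilirubin across the apical membrane. ABCC2 went from 1078 to 3659, a 3.39-fold higher signal (log2 difference 1.76). This was place 37 of the 13183 measured genes from the top. ABCC2 has 1 probe set, so no other probe set bears on it. It lies among the brightest 3296 of the measured genes by mean signal, where 0.88% were at least 2-fold higher and 1.33% were past 2-fold in either direction. Its mean log2 signal of 10.96 stands at the lower edge of that bin, however, and its monolayer signal alone would fall in the next dimmer bin of 3295 genes, where 1.73% were at least 2-fold higher and 3.005% past 2-fold.

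ABCB1, the P-glycoprotein first known from multidrug-resistant cells, went from 199 in the monolayer to 80.8 in the spheroids. The spheroid signal was 2.47-fold lower (log2 difference -1.30). ABCB1's spheroid signal lies just above the floor and under 84.7. That level is the 95th percentile of the signals, both arrays pooled, of 107 probe sets of olfactory receptors, genes known mainly from the nose. With 84.7 as the floor, the log2 difference is a bound of -1.24. A second ABCB1 probe set was under the floor on both arrays, at 42.5 and 13.9. A probe set assigned to ABCB1 and its neighbour ABCB4 together, which was not counted, went from 190 to 92.7 (log2 difference -1.04), while the probe sets of ABCB4 alone were under the floor on both arrays. ABCB1 lies among the dimmest 3296 of the measured genes, where 5.64% were at least 2-fold lower.

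The remaining MRP genes and ABCG2 stayed within 1.5-fold. ABCC1, or MRP1, which exports glutathione conjugates and leukotriene C4, read 4006 in the monolayer and 3073 in the spheroids (log2 difference -0.38). Its dimmer probe set, at 284 and 318, was at 0.16, so the probe sets of ABCC1 oppose each other. ABCC3, or MRP3, a pump of the basolateral membrane, had signals of 498 and 566 (log2 difference 0.19). It has 4 probe sets over the floor in each condition, of which 3 were higher and 1 lower, from -0.12 to 0.37. ABCC4, or MRP4, which exports cyclic nucleotides and prostaglandins, had signals of 2203 and 1932 (log2 difference -0.19), and a dimmer probe set was at -0.54.

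ABCC5, or MRP5, another exporter of cyclic nucleotides, gave a value that depends on the probe set. The brightest went from 812 to 762 (log2 difference -0.09), whereas another went from 86.6 to 162 (0.90), and the dimmest from 44.04, under the floor, to 75.8. ABCG2, or BCRP, the pump behind the side population assay, read 155 in the monolayer and 138 in the spheroids by its 1 probe set. That is 1.13-fold lower (log2 difference -0.17), turning to 0.07 when scaled to the spike-ins. The ABCG2 log2 difference was smaller than 0.41, the SD of differences between probe sets of the same gene over 5506 genes. Over 9 ABC genes that SD was 0.53. It measures how far probe sets disagree and not how far replicate arrays would.

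**Figure D2:**
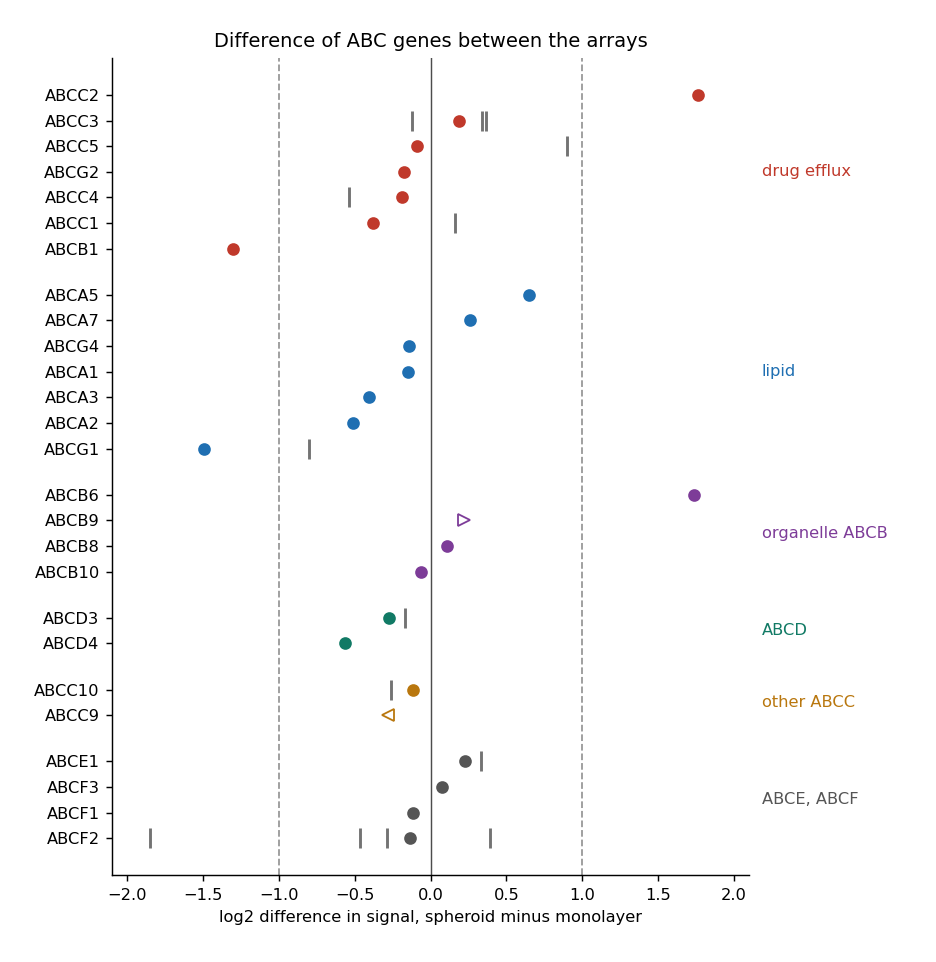
Log2 difference in signal, HT-29 spheroid minus monolayer array, for the 26 measured ABC genes by role, 1 array per condition. Each dot is a gene by its brightest probe set, open triangles are bounds (ABCB9, ABCC9), grey ticks are the further probe sets measured in each condition, and the dashed lines stand at 2-fold. ABCC2 and ABCB6 lie beyond the right line and ABCB1 and ABCG1 beyond the left one, and a tick of ABCF2 at -1.85 lies far from its dot. Scaling to the spike-ins moves dots to the right and brings 9 that are under 0 above it.

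Of 16 lipid transporters with a probe set 7 were measured, where 13183 of all 19775 genes were. Of the 7, 1 was past 2-fold lower and 0 higher, beside 3.08% and 2.53% of all measured genes. ABCG1, which loads cholesterol onto high-density lipoprotein, read 257 in the monolayer and 91.1 in the spheroids. The spheroid signal was 2.82-fold lower (log2 difference -1.496), which is place 79 from the bottom. The spheroid signal of ABCG1 is close to the floor. Another probe set went from 139 to 79.9, at -0.80, and the next from 108 to 23.3, which is under the floor, so the direction was the same for the 3 probe sets above the floor on at least 1 array. After the floor only the brightest probe set put ABCG1 past 2-fold, and with the median of the probe sets the gene was at -0.80.

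ABCA1, which passes cholesterol and phospholipid to apolipoprotein A-I and is a target of the same LXR receptors as ABCG1, was within 1.5-fold. It read 110 in the monolayer and 99.5 in the spheroids (log2 difference -0.15) by 1 of its 4 probe sets, the other 3 being under the floor on both arrays. ABCA5 was the lipid transporter with the largest difference upward, at 393 in monolayer and 616 in spheroids, 1.57-fold higher. ABCA7, a relative of ABCA1, had signals of 686 and 821 (log2 difference 0.26). ABCA5 and ABCA7 were above 0 in each scaling tried.

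ABCA2, of the endosomes and lysosomes, read 144 in the monolayer and 101 in the spheroids (log2 difference -0.51), but another of its probe sets went from 29.1, under the floor, to 74.8. ABCA3, which fills the lamellar bodies of lung cells with surfactant lipid, had signals of 279 and 210 (log2 difference -0.41). ABCG4, a relative of ABCG1, was near the floor at 77.2 and 69.9 (log2 difference -0.14). ABCA4, ABCA6, ABCA8, ABCA9, ABCA12, ABCA13, ABCB4, ABCG5 and ABCG8 were under the floor on both arrays. ABCG5 and ABCG8, which form the sterol pump of the apical gut membrane, had signals of 3.41 and 13.4 in the monolayer and 29.7 and 33.8 in the spheroids. ABCA5 lies on chromosome 17 (69244311 to 69327133, GRCh38.p14) in a cluster with ABCA6, ABCA8 and ABCA9, and of these 4 genes ABCA5 alone was above the floor. The median log2 difference of the 7 measured lipid transporters was -0.15, and 0.10 when scaled to the spike-ins.

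Among the 4 ABCB genes of mitochondria and lysosomes with a probe set, ABCB6 stood out. ABCB6, a porphyrin transporter of the outer mitochondrial and other membranes, went from 85.7 to 286, a 3.33-fold higher signal (log2 difference 1.74). This was place 39 from the top. The monolayer signal of ABCB6 lies close to the floor, and its second probe set was under the floor on both arrays, at 12.99 and 4.82. ABCB6 lies, like ABCB1, among the dimmest 3296, where 4.31% were at least 2-fold higher. ABCB10, an inner mitochondrial membrane protein tied to heme synthesis, had signals of 1692 and 1621 (log2 difference -0.06), and ABCB8, also mitochondrial, of 123 and 133.03 (0.11). ABCB9, a lysosomal peptide transporter, was under the floor at 50.2 in monolayer and at 73.0 in spheroids, at least 1.16-fold higher. Both mitochondrial relatives of ABCB6 were thus within 1.5-fold, and ABCB10 changed sign when scaled to the spike-ins.

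ABCD3, the major ABC protein of the peroxisome membrane, read 6510 in the monolayer and 5378 in the spheroids (log2 difference -0.28), and its second probe set was at -0.17. ABCD4, which carries vitamin B12 out of the lysosome, had signals of 881 and 595, which is 1.48-fold lower (log2 difference -0.57), and another probe set of it went from 70.0 to 34.7, under the floor. These 2 were lower on the spheroid array in each scaling tried, but ABCD3 was near 0, at -0.03, when scaled to the spike-ins. ABCD2 was under the floor on both arrays. ABCC10, or MRP7, had signals of 1120 and 1034 (log2 difference -0.12). ABCC9, the regulatory subunit SUR2 of potassium channels, went from 76.3 to 10.3, which is under the floor, so it was at least 1.22-fold lower by 1 of 5 probe sets. ABCB5, ABCB11, ABCC8, ABCC11 and ABCC12 were under the floor on both arrays.

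The 4 soluble members were all within 1.5-fold, with a median log2 difference of -0.02. ABCE1, which recycles ribosomes, read 5095 in the monolayer and 5960 in the spheroids (log2 difference 0.23), and its second probe set was at 0.33. ABCF1, which takes part in translation initiation, was at 1943 and 1789 (log2 difference -0.12), and ABCF3 at 342 and 360 (0.08). ABCF2 has 5 probe sets, each above the floor in both conditions, from -1.85 to 0.39, of which the brightest went from 1316 to 1199 (-0.13) and the lowest from 265 to 73.3. Judged by that lowest probe set, ABCF2 would be past 2-fold lower.

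**Figure D3:**
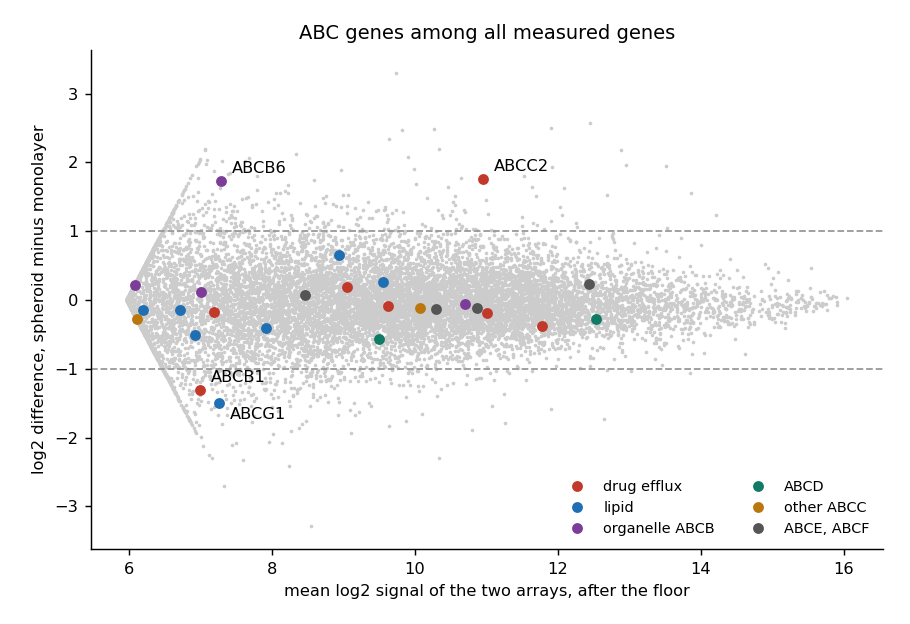
Log2 difference in signal (spheroid minus monolayer) against the mean log2 signal of the arrays for all 13183 measured genes (grey) and the 26 ABC genes (coloured by role), 1 array per condition. Dashed lines mark 2-fold. ABCB6, ABCB1 and ABCG1 lie among dim genes, whose differences scatter widely, and ABCC2 lies further right, where fewer genes are past 2-fold.

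The spread of differences depends on the signal, as the plot against mean signal shows. The measured genes were split by mean signal into 4 bins of equal size. In the dimmest bin 9.95% of genes were past 2-fold, and 3 of the 10 ABC genes there, ABCB1, ABCB6 and ABCG1. In the brightest bin 1.33% were past 2-fold, and 1 of the 5 ABC genes there, ABCC2, at the bin's lower edge. In the bins between, 8.16% and 3.005% of all genes were past 2-fold, and 0 of 4 and 0 of 7 ABC genes.

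**Figure D4:**
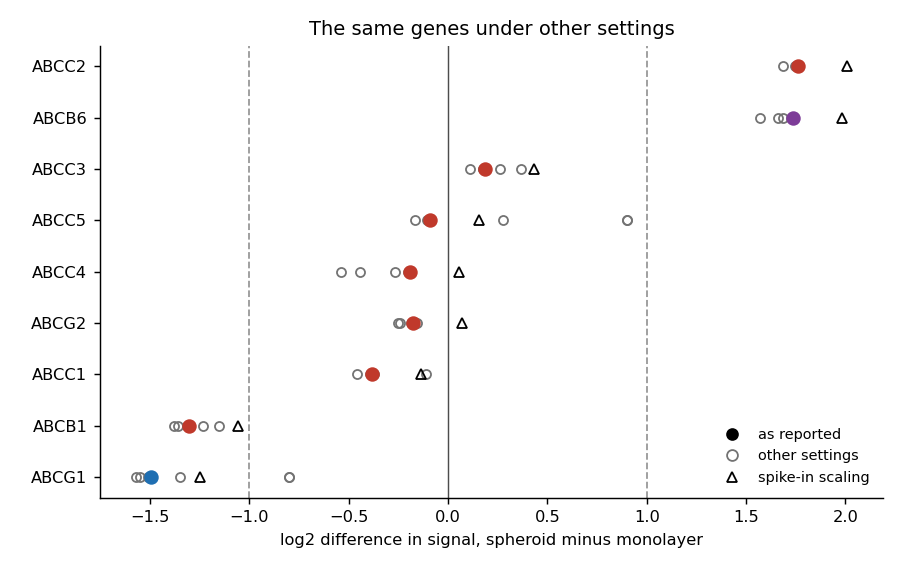
Log2 difference in signal (spheroid minus monolayer) of the 7 drug efflux genes, ABCB6 and ABCG1, as reported (filled) and under other settings of scaling, floor and probe set (open circles), with scaling to the spike-ins as triangles. Dashed lines mark 2-fold. ABCC2, ABCB6 and ABCB1 stay beyond the dashed lines wherever they are measured, ABCG1 falls to -0.80 in 2 settings, and ABCC5, ABCC4 and ABCG2 have values on either side of 0.

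Further ABC proteins have symbols of another form. TAP1 and TAP2, which carry peptides to MHC class I molecules in the endoplasmic reticulum, had log2 differences of -0.28 and -0.12, TAP2 turning to 0.13 when scaled to the spike-ins and to 0.60 by the probe set that differs most. CFTR, a chloride channel, was under the floor on both arrays, at 20.5 and 16.8 for the brightest of its 6 probe sets. Of 12 listed regulators of ABC genes 9 had a probe set of their own, which NR1H2, NR1H4 and NR1I2 did not. NR1I3 was under the floor on both arrays. Among the 8 measured regulators 0 were past 2-fold, where 5.61% of all measured genes were. The median log2 difference of the 8 was -0.14. RXRB, a retinoid X receptor, had the largest difference, from 897 to 595 (log2 difference -0.59), and NR1H3, the receptor LXR alpha, was at -0.52, with signals of 393 and 275. NFE2L2, the factor NRF2, was the list's only gene above 0 on the scale as deposited, at 0.26.

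The median log2 difference of 11 measured partners of ABC proteins was -0.27. Of the 11, 1 was past 2-fold lower, where 3.08% of all measured genes were. This was EZR, or ezrin, a protein that links apical membrane proteins to actin, which read 21301 in the monolayer and 10224 in the spheroids (log2 difference -1.06). Its 5 probe sets were all lower, from -0.53 to -1.28. RDX, or radixin, its relative, was at 0.40 and MSN, or moesin, at -0.60. PEX16 and TAPBP of the same list differed more than these 2, at -0.86 and -0.82, with further probe sets at -0.13 and -0.45. Of the 11 partners 3 were above 0 and 8 below. EZR was within 2-fold when scaled to the spike-ins (-0.81), after quantile normalization (-0.99) or without probe sets of the _s and _x kind (-0.53).

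Of 6 measured uptake carriers of the organic anion transporting family 1 was past 2-fold higher, where 2.53% of all measured genes were. The median log2 difference of the 6 was -0.06. SLCO1B3, which takes up bile acids, conjugates and several drugs, read 525 in the monolayer and 1156 in the spheroids, 2.20-fold higher by its 1 probe set. Under the other settings it was at 1.06 to 1.38 (log2 difference). With 1 probe set and signals above each floor, its value could change only with the scaling or the pseudocount. Of 14 measured genes of glutathione synthesis and conjugation, which supply substrates of the MRP pumps, 0 were past 2-fold. Their median log2 difference was -0.09, and 5.61% of all measured genes were past 2-fold. GSTA1 had the largest difference, from 96.5 to 157 (log2 difference 0.70). It was at 0.90 by the median of its 2 probe sets and past 2-fold, at 1.10, by the probe set that differs most. The latter was under the floor in monolayer, so its value is a bound.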

How the data were processed

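RNA of HT-29 monolayer cells and of HT-29 spheroids was hybridised to Human Genome U133 Plus 2.0 arrays, 1 column of values per condition. The methods describe duplicates without saying whether a column is one of them, and no spread between replicates can be had, which limits the precision. The deposited values are MAS5 signals made by the authors with Affymetrix Expression Console (per the labels and methods, version not given in the sources used here), an intensity on a linear scale for 54675 probe sets. MAS5 scales each array to a common level, and the trimmed mean, with 2% cut at each end, was 500.1 on both arrays. Detection calls were not used here.

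Python 3.11.15, numpy 2.4.6, pandas 2.3.3 and matplotlib 3.10.9 were used here. The platform annotation gives 1 gene for 41097 probe sets, of which 41043 were matched to current RefSeq symbols, and several for 1801, while 11777 are unnamed. Signals under the floor were set to it, log2 was taken, and each gene took its brightest probe set by mean log2 signal. A 2-fold threshold was used, which the methods name. Some genes of the family are not reported here. Members, role groups and lists were chosen with earlier results of these data known. Drug efflux and lipid transporters above the floor were named in full, others when past 1.5-fold or among the 4 largest differences of their group. Of the further lists, the relatives, genes past 2-fold and the largest difference were named, and RDX, MSN, PEX16, TAPBP, NR1H3 and NFE2L2 once their values were known. Regulators without a value were named as well. The calculation of log2 differences and 2-fold calls was tried on simulated data, in which the shifted genes lay well above the floor. That trial does not bear on calls near the floor, such as ABCB1, ABCB6 and ABCG1. The alternatives were other scalings, floors, probe set choices, a pseudocount of 15.9 and a 3-fold threshold.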

Additional observations from a re-analysis of the deposited data

How the results depend on the processing

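The number of ABC genes at least 2-fold higher was 2 as reported and under 9 alternatives, the same ABCC2 and ABCB6. It was 7 without a floor, 4 with a pseudocount of 15.9 and 1 (ABCC2) with the floor at the 75th percentile of signals, 386, where ABCB6 is under the floor. The number at least 2-fold lower was 2 as reported, 10 without a floor, 6 with the pseudocount, 0 with the floor at the 75th percentile, where ABCB1 and ABCG1 are under it, 3 (ABCB1, ABCG1 and ABCF2) by the probe set that differs most, a setting in which 11.4% of all genes are past 2-fold, 1 (ABCB1) with the median of probe sets or without probe sets of the _s and _x kind, and 0 at 3-fold. Without a floor or with the pseudocount all 41 genes enter, signals near background included, and 25.2% and 13.7% of all genes are past 2-fold. The median of lipid transporters was 0.45 with the floor at the 75th percentile, where 2 genes, ABCA5 and ABCA7, are measured. The medians of the family and of drug efflux transporters moved by less than 0.41, the SD between probe sets of a gene, under the 11 alternatives each. Of 262 values of the 26 genes under alternatives 254 moved by less than that SD. Much of this was set in advance, for the medians too. Scaling to the spike-ins adds only 0.25 to a gene above the floor on both arrays. A bright gene with 1 probe set keeps its value, where it has one, under other floors and probe set choices. The count is therefore no check on the differences. The 8 values that moved by more than the SD belong to ABCC5, ABCC9, ABCF2 and ABCG1, and those of ABCC9 rest on a spheroid signal under the floor. Among all measured genes past 2-fold, 45.1% were higher, but 34.0% with median scaling, 57.5% with the floor at the 75th percentile and 78.7% with scaling to the spike-ins, and the ABC genes were 2 and 2 under both those scalings. No paired analysis was possible because each condition has 1 array, and no array could be left out.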
